A study of Rattus norvegicus and Heterocephalus glaber with 6 samples.

Results

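The cytochrome P450 family 4 (CYP4) fatty acid omega-hydroxylases were examined in the livers of rats held at 8% oxygen for 8 hours. The genes are those on a list of 10 symbols: Cyp4a1, Cyp4a2, Cyp4a3, Cyp4a8, Cyp4b1, Cyp4f1, Cyp4f4, Cyp4f5, Cyp4f6 and Cyp4v3. Of these, 9 had a row among the 22517 symbols of the rat tables and 0 had one among the 567 symbols of the naked mole rat tables. The study sequenced polyadenylated liver RNA of naked mole rats (NMR in the labels), a subterranean rodent, and of rats, all exposed to the same low oxygen, with 3 libraries per species. Normoxia libraries were not analysed here, which leaves the effect of low oxygen untested. The sources used here give no strain, sex or age of the animals, and nothing states that the 3 samples of a species came from separate animals. Rat 1, rat 2 and rat 3 below name the libraries, and spread and p-values measure only the differences between these samples, which may be technical. Values are FPKM, fragments scaled by transcript length and by the mapped fragments of the library, so levels of different genes can be set side by side.

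CYP4 enzymes are membrane-bound haem proteins of the endoplasmic reticulum that add a hydroxyl group to the terminal (omega) carbon of fatty acids, with electrons from NADPH passed on by P450 oxidoreductase. Dehydrogenases then turn the product into a dicarboxylic acid, which peroxisomes shorten by beta-oxidation. In rodent liver the Cyp4a genes are classic targets of PPAR alpha, the nuclear receptor for fatty acids and fibrates. The same chemistry makes hydroxyeicosatetraenoic acid from arachidonate and inactivates leukotrienes.

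The members lay in clusters. In the coordinates of the deposited tables, whose genome build the sources used here do not name, 6 CYP4 rows including 4 members stood together on chromosome 5 from 135496567 to 135934636, with no other row inside. Another 8 rows, 4 of them members, lay on chromosome 7 from 13036889 to 13636290, and Cyp4v3, outside both clusters, lay on chromosome 16 from 50208686 to 50233625. No member's row overlapped another row. Copies within such clusters can share reads, and the sources used here do not say how the authors' counting assigned them. RefSeq (build GRCr8) lists Cyp4a10 as another name of Cyp4a1, and the tables hold a Cyp4a10 row between Cyp4a3 and Cyp4b1, the place of Cyp4a1 in RefSeq's order. That row is described below as a relative and not as a member. RefSeq also places a further gene, Cyp4a2l1, and the pseudogenes Cyp4a2-ps1 and Cyp4a2-ps2 between Cyp4a2 and Cyp4a3, and none of the 3 had a row of its own in the tables.

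Promoters from RefSeq (build GRCr8, 250 bases before to 50 after the start) matched 7 of the 10 members. Those of Cyp4a2, Cyp4a3 and Cyp4a8 are printed because the levels of the first pair moved together between the rats while the last did not follow them. Capitals mark each copy, on either strand, of AGGTCA, the core sequence that nuclear receptors of the PPAR type read. They lie on the minus strand at chr5:134170859-134171158 (Cyp4a2), chr5:134352187-134352486 (Cyp4a3) and chr5:133970177-133970476 (Cyp4a8).
Cyp4a2: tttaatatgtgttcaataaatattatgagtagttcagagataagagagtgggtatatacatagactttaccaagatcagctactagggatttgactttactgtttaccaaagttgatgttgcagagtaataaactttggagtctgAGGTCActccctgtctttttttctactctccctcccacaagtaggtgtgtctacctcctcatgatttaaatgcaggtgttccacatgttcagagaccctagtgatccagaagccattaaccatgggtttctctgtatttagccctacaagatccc
Cyp4a3: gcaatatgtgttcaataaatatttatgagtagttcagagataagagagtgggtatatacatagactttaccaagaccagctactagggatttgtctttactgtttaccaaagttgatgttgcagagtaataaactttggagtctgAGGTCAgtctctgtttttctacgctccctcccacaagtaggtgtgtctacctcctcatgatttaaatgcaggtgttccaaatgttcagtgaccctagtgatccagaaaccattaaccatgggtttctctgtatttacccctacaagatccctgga
Cyp4a8: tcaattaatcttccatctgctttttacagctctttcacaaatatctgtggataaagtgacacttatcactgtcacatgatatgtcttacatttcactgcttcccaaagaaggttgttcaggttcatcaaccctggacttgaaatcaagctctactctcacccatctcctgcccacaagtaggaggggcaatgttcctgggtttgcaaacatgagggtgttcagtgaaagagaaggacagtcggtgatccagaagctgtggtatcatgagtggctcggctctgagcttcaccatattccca

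The Cyp4a2 and Cyp4a3 windows were 94.7% identical, with 11 mismatches and 5 gap columns in 300 aligned columns, whereas the other 20 pairs of members with a promoter ranged from 46.4% to 59.1%. The Cyp4a2l1 window matched that of Cyp4a2 in all 264 aligned columns. Cyp4a2 and Cyp4a3 each held 1 copy of this core, 105 bases before the start in both, and Cyp4a8 held 0. No other member with a promoter held a copy. The windows of the pair are nearly identical, so their copies are not separate observations. The printed promoters were picked by their levels, so the contrast with Cyp4a8 is no test of a link to those levels. Over all 33469 promoters of the same length, 16.2% held AGGTCA or its reverse TGACCT. The spaced repeat AGGTCANAGGTCA, searched on both strands, was in 0.0538% of them and in no member's window. A match of letters is a description and does not show that a factor binds.

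Cyp4a3 was the most abundant member and Cyp4a2 had the largest spread between the rats, while the abundant Cyp4f genes stood at nearly the same level in each. Of the 9 members, 4 had a mean of at least 100 FPKM, 6 of at least 10 FPKM and 8 of at least 1 FPKM. Their sum was 783, 1215 and 831 FPKM in rat 1, rat 2 and rat 3, a mean of 943 ± 237 (SD, n = 3). It made up 9.21%, 12.5% and 8.70% of the FPKM of all 80 rat symbols of the P450 superfamily in rat 1, rat 2 and rat 3.

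**Figure D1:**
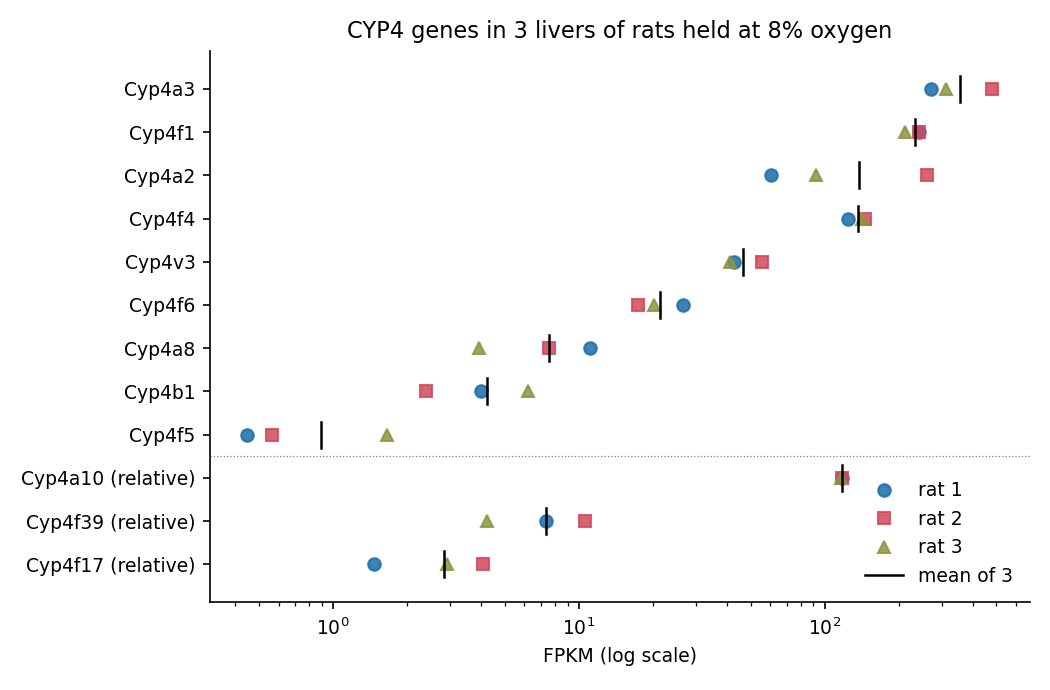
FPKM (log scale) of the 9 members and, below the dotted line, of the 3 relatives with a mean of at least 1 FPKM; each point is 1 rat library and the bar is the mean of 3. Cyp4a2 runs from 60.7 to 261 FPKM, while the points of Cyp4f1 lie between 212 and 243.

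Among the Cyp4a genes, whose rat enzymes hydroxylate lauric and arachidonic acid, Cyp4a3 stood at 270, 482 and 312 FPKM in rat 1, rat 2 and rat 3 (mean 355 ± 112, SD, n = 3). It was the 8th most abundant of the 80 P450 symbols. Cyp4a2 stood at 60.7, 261 and 91.9 FPKM in rat 1, rat 2 and rat 3 (mean 138 ± 108, SD, n = 3), so that rat 2 was 4.30 times rat 1. Both were highest in rat 2 and lowest in rat 1. Without rat 2 the mean of Cyp4a2 was 76.3 FPKM, so its mean rests on that library. The ratio of Cyp4a2 to Cyp4a3 was 0.224 in rat 1, 0.541 in rat 2 and 0.295 in rat 3, so the pair did not move in proportion. The summed level of Cyp4a2 and Cyp4a3 was 331, 743 and 404 FPKM in rat 1, rat 2 and rat 3.

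Cyp4a8 had another order. It stood at 11.1, 7.55 and 3.94 FPKM in rat 1, rat 2 and rat 3 (mean 7.53 ± 3.59, SD, n = 3), highest where Cyp4a2 and Cyp4a3 were lowest. The relative Cyp4a10 stood at 117 FPKM in every rat, with values of 117.5, 117.8 and 117.1 (mean 117 ± 0.370, SD, n = 3). Of the 4 Cyp4a rows of chromosome 5, then, a pair was highest in rat 2, 1 was highest in rat 1 and 1 was level in FPKM as deposited.

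The Cyp4f genes encode enzymes known in the rat for hydroxylating leukotriene B4. Cyp4f1 stood at 243, 242 and 212 FPKM in rat 1, rat 2 and rat 3 (mean 232 ± 17.4, SD, n = 3). Cyp4f4 stood at 124, 147 and 142 FPKM in rat 1, rat 2 and rat 3 (mean 137 ± 11.9, SD, n = 3). These were the most even of the members, with coefficients of variation of 7.49% and 8.66%. Cyp4f6 was lower, at 26.5, 17.5 and 20.2 FPKM in rat 1, rat 2 and rat 3 (mean 21.4 ± 4.63, SD, n = 3), and it was lowest where Cyp4a2 was highest. Cyp4f5 was the lowest of the members, at 0.448, 0.564 and 1.66 FPKM in rat 1, rat 2 and rat 3. Its mean of 0.892 fell to 0.506 without rat 3. The sum of the 4 Cyp4f members was 394, 406 and 376 FPKM in rat 1, rat 2 and rat 3.

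Outside these subfamilies, Cyp4v3 is the rat counterpart of human CYP4V2, a fatty acid hydroxylase mutated in Bietti crystalline retinal dystrophy. It stood at 42.9, 55.6 and 41.3 FPKM in rat 1, rat 2 and rat 3 (mean 46.6 ± 7.79, SD, n = 3), highest in rat 2. Cyp4b1, known from lung, where it activates plant toxins, stood at 4.001, 2.40 and 6.24 FPKM in rat 1, rat 2 and rat 3 (mean 4.21 ± 1.93, SD, n = 3), lowest in rat 2. The markers of lung epithelium were at or near 0 in the same libraries, with a summed level of 0.0819, 0.0365 and 0 FPKM in rat 1, rat 2 and rat 3 over 4 genes, and Scgb1a1 and Sftpb at 0 in each.

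Of the 6 other relatives, Cyp4f39 had a mean of 7.37 ± 3.17 FPKM and Cyp4f17 of 2.82 ± 1.32 (SD, n = 3 each). Both were highest in rat 2, at 10.6 and 4.09 FPKM. Cyp4f37, Cyp4f18, Cyp4f40 and Cyp4x1 had means under 1 FPKM.

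By mean level the members ran from Cyp4a3 through Cyp4f1, Cyp4a2, Cyp4f4, Cyp4v3, Cyp4f6, Cyp4a8 and Cyp4b1 to Cyp4f5. Of the 8 pairs of neighbours in this order, 5 had ranges that did not overlap. The ranges overlapped for Cyp4f1 with Cyp4a2, for Cyp4a2 with Cyp4f4 and for Cyp4a8 with Cyp4b1, whose order therefore did not hold beyond the spread between libraries. Cyp4a2 and Cyp4f4 had nearly equal means, yet Cyp4a2 was 0.490 times Cyp4f4 in rat 1, 1.78 times in rat 2 and 0.649 times in rat 3. With 3 samples and no second group among the rats, no test of these differences was made.

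The higher sum in rat 2 came mostly from 2 genes. Rat 2 exceeded rat 1 by 432 FPKM in the sum, and 95.4% of that gap was due to Cyp4a2 (200 FPKM) and Cyp4a3 (212 FPKM). Against rat 3 the gap was 384 FPKM, with 88.4% from the same pair. Rat 3 exceeded rat 1 by 47.6 FPKM, made up of 72.4 from this pair and -24.8 from the other members. The other 7 members summed to 452, 472 and 427 FPKM in rat 1, rat 2 and rat 3. As a share of the CYP4 sum, the 3 Cyp4a members made up 43.7%, 61.8% and 49.0% in rat 1, rat 2 and rat 3, and the 4 Cyp4f members 50.3%, 33.4% and 45.2%. Among the members, Cyp4f was thus the larger part in rat 1 and Cyp4a in rat 2 and rat 3. With the Cyp4a10 row added, the Cyp4a rows summed to 460 FPKM in rat 1, above the Cyp4f members there, so the order in rat 1 depends on leaving that row out. Without rat 2, the mean sum was 807 FPKM.

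**Figure D2:**
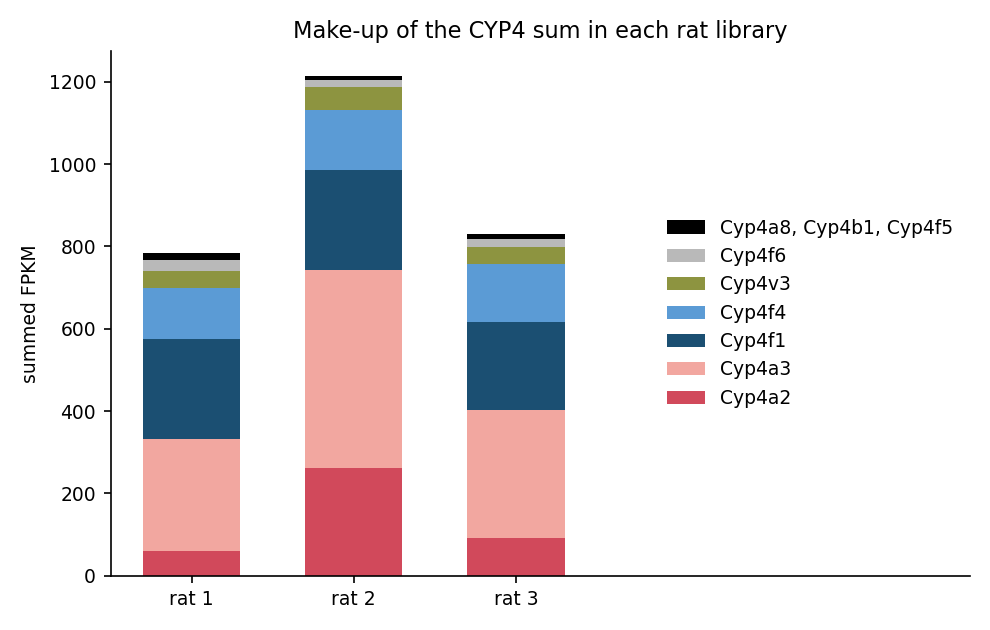
Summed FPKM of the members in each rat library, stacked by gene. The bar of rat 2 reaches 1215 FPKM, and the red blocks of Cyp4a2 and Cyp4a3 account for most of its excess over the bars of rat 1 (783) and rat 3 (831).

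The spread of each gene was set beside that of all rat symbols whose mean lay within 2-fold of its own, as the SD of log2(FPKM + 1) over the 3 libraries. For Cyp4a2 this SD was 1.08, and 5 of 637 such symbols had a larger one. For Cyp4a3 it was 0.43, with 23 of 301 larger, and for Cyp4a8 0.65, with 60 of 3840 larger. Cyp4b1 (0.55, with 84 of 4045 larger) and Cyp4f5 (0.48, with 91 of 2499 larger) also lay near the upper end for their level. Cyp4f6 had 0.29 and Cyp4v3 0.23. Cyp4f1 and Cyp4f4 were in the middle of their neighbours, at 0.11 with 260 of 437 larger and at 0.13 with 335 of 637 larger. Cyp4a10 stood at 0.0045 in FPKM as deposited, with 690 of 691 larger. With median ratio scaling, chosen after seeing the data, its SD was 0.060, with 577 of 688 larger, so its near equality between the rats depends on leaving the libraries unscaled. The same scaling gave 0.067 for Cyp4f4, with 512 of 636 larger, and 1.02 for Cyp4a2, with 6 of 638 larger.

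**Figure D3:**
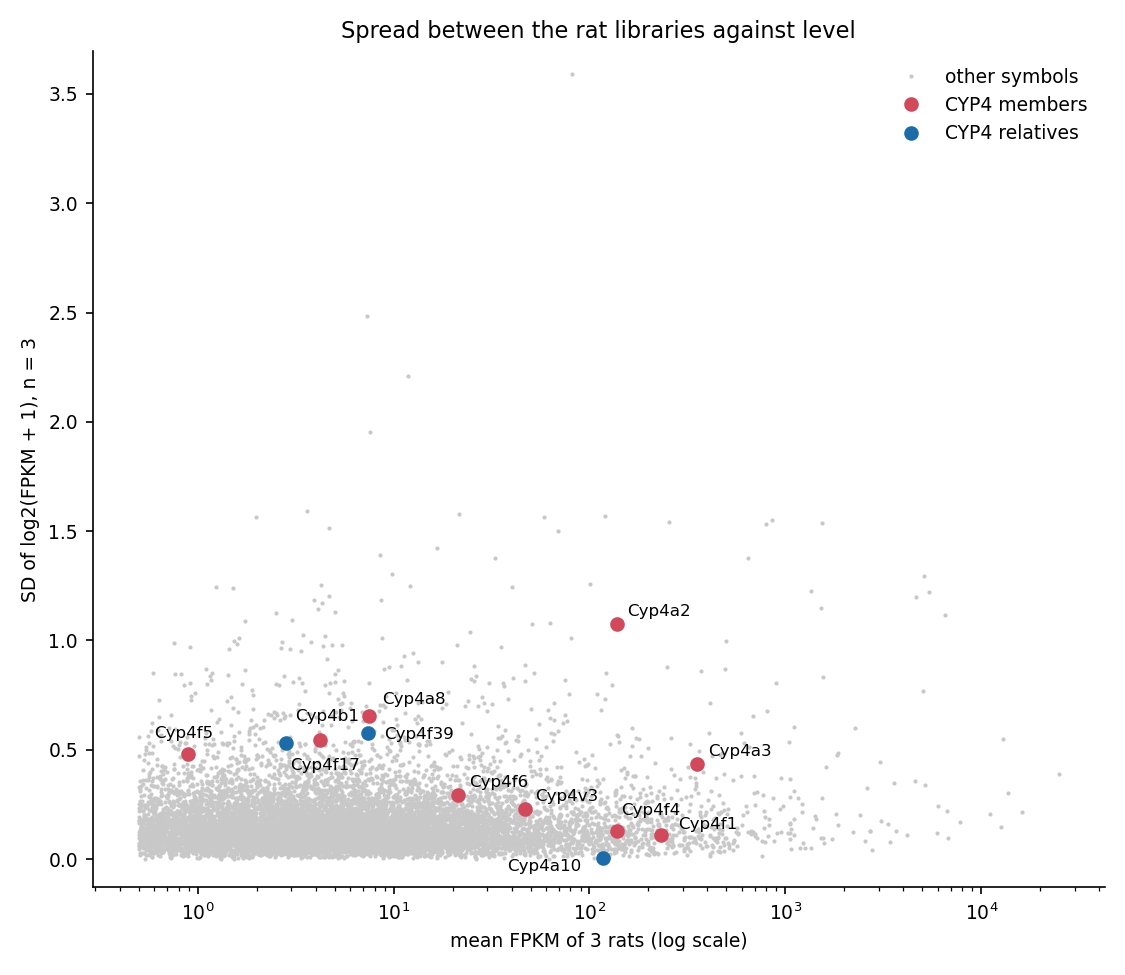
SD of log2(FPKM + 1) over the 3 rat libraries against mean FPKM (log scale) for rat symbols with a mean of at least 0.5 FPKM; red points are CYP4 members, blue points relatives and grey points all others. Cyp4a2 stands at an SD of 1.08, with 5 of 637 symbols of like level above it, while Cyp4f1 and Cyp4f4 lie within the grey band and Cyp4a10, in these unscaled values, at its lower edge.

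By the rule of smallest Euclidean distance between centred log2(FPKM + 1) values over the 3 rat libraries, the symbols whose pattern was most like the CYP4 sum, among those with a mean of at least 10 FPKM, were Galk1, Cabc1, Apoc2, Mbl2 and Rhobtb1. Their distances were 0.0242 to 0.0524, against a median of 0.452 over 3901 symbols. For Cyp4a2 they were Scpep1, Elovl5, LOC100359478, Cxcl9 and Inmt, at 0.439 to 0.614, against a median of 1.46 over 3906 symbols. Elovl5, which lengthens polyunsaturated fatty acids, stood at 58.9, 170 and 100.4 FPKM in rat 1, rat 2 and rat 3. Over 3 libraries such likeness is a description and says nothing of shared control.

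PPAR alpha itself (Ppara) stood at 34.1, 44.6 and 27.6 FPKM in rat 1, rat 2 and rat 3, and its partner Rxra at 135, 121 and 142. The level of Ppara was thus also highest in rat 2, that of Rxra lowest. Of 12 genes listed for the receptor, its partners and its cofactors, 4 reached 10 FPKM. Of these, 2 were highest in rat 2, against 49.3% of all 3907 symbols at this level. Nr1h3, the oxysterol receptor LXR alpha and also a partner of Rxra, stood at 57.5, 74.9 and 65.4 FPKM in rat 1, rat 2 and rat 3.

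Textbook PPAR alpha targets outside CYP4 were mostly also highest in rat 2, with a smaller median spread than the members. Among the 6 members with a mean of at least 10 FPKM, 4 (Cyp4a2, Cyp4a3, Cyp4f4 and Cyp4v3) were highest in rat 2, and 15 of the 21 listed targets that reached this level were too. Over all 3907 symbols at this level, 49.3% were highest in rat 2. After scaling the libraries by their median ratio, an alternative chosen after seeing the data, the counts were 4 of 6 and 13 of 21, against 35.4% of all symbols. The relative Cyp4a10, which RefSeq lists as another name of Cyp4a1, is not in these counts. It stood at 117.5, 117.8 and 117.1 FPKM in rat 1, rat 2 and rat 3. After this scaling it was highest in rat 1, at 123, 113 and 116. The median SD of log2 was 0.26 for the 6 members, 0.20 for the 21 targets and 0.13 for all symbols at this level. Acsl1, which activates long-chain fatty acids, stood at 268, 512 and 301 FPKM in rat 1, rat 2 and rat 3. Fabp1, a fatty acid binding protein, was highest in rat 3 (3895, 5358 and 6173 FPKM), and Pex11a, of peroxisome division, in rat 1 (61.8, 38.3 and 29.1 FPKM).

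Peroxisomal beta-oxidation, which shortens dicarboxylic acids, had 12 listed genes at 10 FPKM or more. Of these, 9 were highest in rat 2, and 7 after median ratio scaling. The shares over all symbols at this level were 49.3% and, after this scaling, 35.4%. This list shares genes with the list of targets, among them Ehhadh. Crot, a carnitine acyltransferase of peroxisomes, stood at 16.9, 37.2 and 20.4 FPKM in rat 1, rat 2 and rat 3. Acox2 stood at 202, 251 and 215 FPKM and Scp2, a thiolase and sterol carrier, at 475, 496 and 494 FPKM in rat 1, rat 2 and rat 3, so that Scp2 hardly differed between them. Acot3, a thioesterase, was highest in rat 3, at 8.32, 14.2 and 17.8 FPKM.

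**Figure D4:**
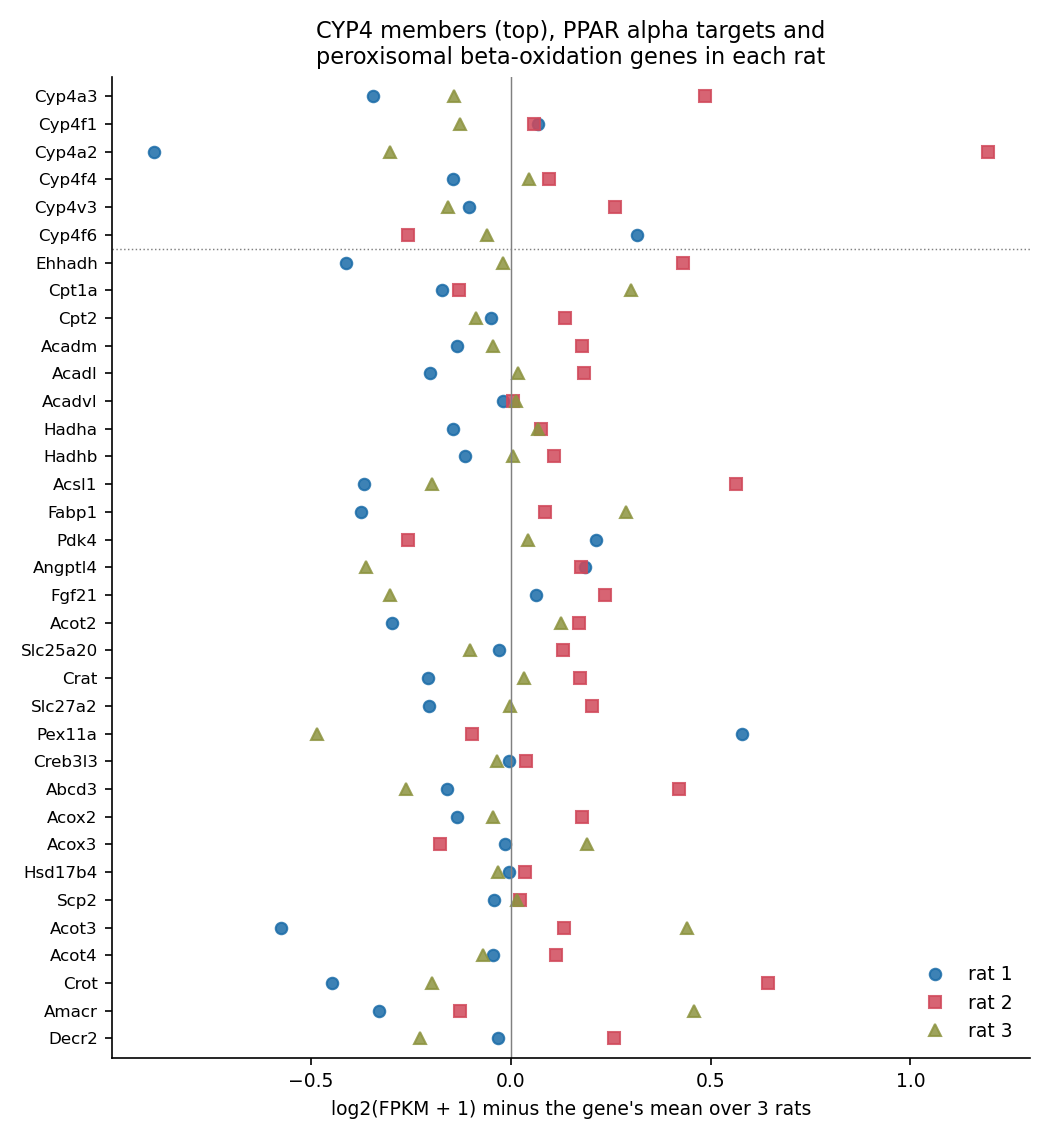
log2(FPKM + 1) of each gene minus its mean over the 3 rats, for the 6 CYP4 members with a mean of at least 10 FPKM (above the dotted line) and for listed PPAR alpha targets and peroxisomal beta-oxidation genes at that level, some of which are not drawn; each point is 1 library. The red squares of rat 2 lie farthest right for 4 of 6 members and for most of the other genes drawn. The shift is widest for Cyp4a2. The relative Cyp4a10 is not drawn. Among all symbols at that level, 49.3% were highest in rat 2.

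Some genes of the steps just before and after the omega-hydroxyl group were abundant. Of 14 electron donor and haem genes with a row, 2 had a mean of at least 100 FPKM. Of 13 genes for the later steps, 6 did. Por, the P450 oxidoreductase, stood at 510, 578 and 618 FPKM in rat 1, rat 2 and rat 3, and cytochrome b5 (Cyb5a) at 920, 1048 and 894. Of the 12 listed electron donor and haem genes at 10 FPKM or more, 5 were highest in rat 2, also after median ratio scaling. Over all symbols at this level the shares were 49.3% and, after this scaling, 35.4%, which also applies to the later steps below. Hmox1, which breaks down haem, was highest in rat 1, at 112, 60.1 and 48.3 FPKM, and Alad, of haem synthesis, in rat 3, at 41.4, 50.9 and 57.0 FPKM. Of 11 genes for the later oxidation and activation steps, 5 were highest in rat 2. This list shares genes with the list of PPAR alpha targets, among them Acsl1. Aldh2 (717, 864 and 742 FPKM in rat 1, rat 2 and rat 3) and Adh4 (27.1, 45.1 and 24.0 FPKM) were highest in rat 2. Adh1 was lowest there (680, 519 and 882 FPKM).

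Other enzymes act on the same fatty acids. Of 6 genes of arachidonate supply and metabolism at 10 FPKM or more, 2 were highest in rat 2, or 1 after median ratio scaling. Over all symbols at this level, 49.3% were, or 35.4% after this scaling. These shares also stand beside the other counts of this paragraph. Cyp2c23, the main arachidonate epoxygenase of rat kidney, stood at 369, 335 and 325 FPKM in rat 1, rat 2 and rat 3, and Cyp2j4 at 18.9, 15.5 and 10.95 FPKM. Epoxide hydrolase Ephx1 stood at 244, 251 and 193 FPKM and Ptgr1, which inactivates prostaglandins and leukotriene B4, at 21.7, 34.4 and 21.4 FPKM. Of 3 P450 genes for hydroxylation at other carbons, 0 were highest in rat 2. This list and that of the arachidonate genes have a gene in common. Cyp2e1, which acts next to the terminal carbon, stood at 2988, 3318 and 3734 FPKM. Of 4 genes of vitamin K and tocopherol handling, nutrients that human CYP4F2 hydroxylates, 1 was highest in rat 2, namely Ttpa at 144, 184 and 124 FPKM. Vkorc1 and Nqo1 were highest in rat 3, at 141 and 27.4 FPKM.

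Genes that mark position in the liver lobule and the growth hormone pattern were set beside the members. Over all symbols at 10 FPKM or more, 49.3% were highest in rat 2, or 35.4% after median ratio scaling. Of the genes of the central vein side at this level, 2 of 4 were highest in rat 2, or 1 of 4 after median ratio scaling. Of the portal side 8 of 9 were, or 5 of 9 after median ratio scaling. The central list shares Cyp2e1 and Cyp1a2 with the list of P450 genes for other carbons. The portal genes Ass1 and Arg1, of the urea cycle, stood at 4243, 4458 and 3843 FPKM and at 1660, 2054 and 1854 FPKM in rat 1, rat 2 and rat 3. The portal gene Pck1, of gluconeogenesis, was lowest in rat 2, at 817, 451 and 1139 FPKM, and Sds highest, at 461, 618 and 320. On the central side Gulo, of ascorbate synthesis, stood at 152, 200.0 and 186 FPKM and Cyp1a2 at 310, 388 and 400.3. Of 5 growth hormone patterned genes, 2 were highest in rat 2, or 1 after median ratio scaling, and Cyp3a2 and Cyp2a2, male-predominant P450s of rat liver, stood at 363, 331 and 394 FPKM and at 166, 198 and 219 FPKM. Srd5a1 was lowest in rat 2 (27.1, 18.2 and 35.7 FPKM), and Cyp3a18 highest (105, 114 and 85.2 FPKM). Cyp2c12 and Cyp2c13 of the same list, named after their values were seen, were at 0 in each rat. The sex of the animals was not read from these values.

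Other properties of the libraries also differed between the rats, in several orders. A2m, an acute-phase protein of the rat named after its values were seen, stood at 191, 0.571 and 52.3 FPKM in rat 1, rat 2 and rat 3, the lowest level where Cyp4a2 was highest. Hepatocyte markers (8 genes) summed to 58404, 51793 and 60349 FPKM in rat 1, rat 2 and rat 3. This sum does not stand for each of its genes. Cps1, named after its values were seen, was highest in rat 2, at 1054, 1114 and 980 FPKM. Macrophage markers (9 genes, Marco at 0) summed to 301, 308 and 410. Endothelial markers summed to 86.9 to 92.9, stellate or fibroblast markers to 28.2 to 40.4 with rat 2 lowest. Cholangiocyte markers summed to 11.6 to 16.6 with rat 3 highest. Erythroid markers (2 genes) summed to 55.0 in rat 1, 359 in rat 2 and 349 in rat 3. Nearly all of this was Hbb, at 54.4, 357 and 348 FPKM. Lymphocyte markers (8 genes) summed to 8.69 to 16.4 and neutrophil markers (5 genes, Elane and Ltf at 0) to 2.23 to 10.1, both with rat 3 highest. Kidney tubule markers, of which 4 of 5 were at 0, summed to 0.0438 to 0.117. The part of these in the CYP4 values was not tested, and in bulk tissue fewer cells of a type cannot be told apart from less RNA per cell.

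The design compares the species, and for the CYP4 members this could not be done, since 0 of 10 had values in naked mole rat. The comparison was fitted on the 388 symbols found in both sets of tables, to see how the neighbouring pathway genes stood. Over 288 symbols tested, 94 (32.6%) passed as higher in naked mole rat and 118 (41.0%) passed as higher in rat. A call needed a limma adjusted p under 0.05 with an absolute difference of 1 or more on the log2 scale. Scaling each library to the same total over the shared symbols gave 128 and 94. The median log2 difference over the symbols tested was -0.40, against 0.57 with the same total and 0.16 with quantiles, so each difference below is to be read against that median. Of the 135 genes in the lists above, 7 were tested, of which 3 passed as higher in naked mole rat, 3 passed as higher in rat, and 1 passed in neither direction. ADH6, of the alcohol dehydrogenase family, averaged (scaled FPKM) 2.49 ± 1.25 in naked mole rat and 18.2 ± 3.84 in rat (SD, n = 3 each; log2 difference -2.51 ± 0.30, SE; limma adjusted p = 9.77e-05). ADH5, a dehydrogenase that can oxidize omega-hydroxy fatty acids, stood at 44.4 ± 5.53 in naked mole rat and 103 ± 9.70 in rat (log2 difference -1.20; limma adjusted p = 0.000113), a call lost when libraries were scaled to the same total (-0.22; limma adjusted p = 0.147) or by quantiles (-0.18; limma adjusted p = 0.106).

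VNN1, a pantetheinase and PPAR alpha target, stood at 2.16 ± 0.458 in naked mole rat and 6.28 ± 1.44 in rat (SD, n = 3 each; log2 difference -1.19; limma adjusted p = 0.000331), a call lost with the same total (-0.43) and with quantiles (-0.79). ALOX15, an arachidonate lipoxygenase, stood at 6.995 ± 0.479 in naked mole rat and 0.578 ± 0.492 in rat (log2 difference 2.39; limma adjusted p = 2.89e-05). UROD, of haem synthesis, missed the size threshold (limma adjusted p = 0.00133; 19.2 ± 2.29 in naked mole rat and 31.2 ± 2.48 in rat), with a log2 difference of -0.67 that turned to 0.29 when libraries were scaled to the same total. CYP1A1, a P450 induced through the aryl hydrocarbon receptor, stood at 200.3 ± 54.1 in naked mole rat and 0.998 ± 0.196 in rat (log2 difference 6.62; limma adjusted p = 5.19e-08). CYP1A2, its hepatic relative, stood at 2394 ± 638 in naked mole rat and 339 ± 31.6 in rat (log2 difference 2.79; limma adjusted p = 3.02e-05). ALOX15 and CYP1A1 reached the entry level of 1 scaled FPKM in every naked mole rat library but not in every rat library. Their rat values lay near or under that level, and the rat libraries alone would not have let either gene enter the test. Both genes still passed as higher in naked mole rat with no filter. The naked mole rat rows spanned 625382 bp for ALOX15 (8450 in rat), 2770628 bp for UROD (4087 in rat) and 135814 bp for ADH6 (31507 in rat). They spanned 52992 bp for ADH5 (12408 in rat), 23866 bp for CYP1A1 (6031 in rat) and 17025 bp for VNN1 (10303 in rat). For CYP1A2 the naked mole rat row was the shorter, at 3540 bp (8800 in rat). In all these values the species, its genome and annotation and the extent of the rows cannot be told apart.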

How the data were processed

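Liver polyadenylated RNA of naked mole rats and rats at 8% oxygen was examined in 3 libraries per species, as 1 FPKM table per library. The FPKM values were computed by the authors, and the deposited columns are those of Cufflinks gene tracking. Tools listed in the submitters' processing notes are Cufflinks 2.1.1, TopHat2 2.0.9, Picard 1.137 and Bowtie2 2.1.0. Genome build and annotation were not given in the sources used here. FPKM carries no counts, so the absolute depth is unknown and intervals for counting error are not given. From the step at which ratios of values under 0.1 FPKM pile up, rat 1 had 1.05 times the depth of rat 2 and 0.983 times the depth of rat 3. Without albumin, FPKM sums were 527133 to 531399 per rat library and 17543 to 21793 per naked mole rat library.

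Rows were matched to symbols without regard to case, and rows of 1 symbol were summed. All 9 members carry the status OK. Albumin, with the status HIDATA in rat 1 and rat 2, was treated as missing there and left out of these sums and of the rescaling to TPM. For the species comparison, each library was divided by a factor, the median over shared symbols (those above 0 in every library) of its ratio to their geometric mean. The factors were 0.889 to 0.973 for naked mole rat and 0.994 to 1.17 for rat. Symbols that reached 1 scaled FPKM in 3 or more libraries entered limma 3.58.1 (R 4.3.3), run with its intensity trend on log2 values after adding 1, and p-values were adjusted by Benjamini-Hochberg. The limma step was tested on simulated data in which a minority of symbols changed, in both directions. Most symbols tested here passed as different, so the simulation does not bear on the scaling between the species. Replicates within the rat correlated at r = 0.984 to 0.986 on log2(FPKM + 1), across 9991 symbols with a mean of at least 1 FPKM, which are not independent replicates. Promoters were compared by global alignment (Biopython 1.88).

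The members, gene lists and tests were chosen with earlier results of these data known. The text names every member, every other CYP4 symbol, per list the 2 genes of highest mean and the 2 of largest spread among those with a mean of at least 10 FPKM, and the 5 symbols most like the CYP4 sum and the most variable member; others are marked as chosen after their values were seen. Some genes that this rule names are not reported here. Alternatives were scaling, pseudocount, filter, intensity trend, a replicate block, the summary used, the level that counts as reached, and leaving out each library.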

Additional observations from a re-analysis of the deposited data

How the results depend on the processing

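The number of members reaching the level, 6 at 10 FPKM, was 6 or 7 under each alternative run. The CYP4 sum, 943 FPKM, was 1781 when each rat library was rescaled to TPM (Alb left out), which changes the unit, and 807 to 1023 with 1 rat library left out. The SD of log2 moved by over 1.5 times in 3 of 19 alternative values: Cyp4f4 to 0.067 and Cyp4a10 to 0.060 with median ratio scaling, and Cyp4f5 to 0.90 with a pseudocount of 0.1. The species counts, 94 and 118, stayed within 1.5 times under each alternative run. The direction with more calls turned, however, with the same total (128 and 94) and with quantile normalization (111 and 101). The difference of UROD, called in neither species, reversed to 0.29 when libraries were scaled to the same total and to 0.062 with quantile normalization. In the same settings the median over all symbols tested rose from -0.40 to 0.57 and to 0.16. The cause of the reversal was not tested. With 1 library left out, the calls were 92 to 101 for higher in naked mole rat and 115 to 122 for higher in rat. Replicate numbers are shared between 2 species and pair no animals; the replicate block gave 94 and 118 calls, and changed no call among the 7 pathway genes. Absolute depth is unknown, which limits what can be said of Cyp4f5 and of the relatives under 1 FPKM.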

Other observations

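Low CYP4 relatives and a neighbouring pathway gene gave further differences between the rats; the genes other than CYP4 were chosen after their values were seen. Cyp4f37 stood at 0.0312, 0 and 0.966 FPKM in rat 1, rat 2 and rat 3, and Cyp4f5 was highest in the same rat, at 1.66 FPKM. Cyp4f18 stood at 0.0194, 0.102 and 0.152 FPKM in rat 1, rat 2 and rat 3, while Cyp4f40 was listed above 0 in rat 2 alone (0.0372) and Cyp4x1 in rat 1 alone (0.0369). Ephx2, the soluble epoxide hydrolase that opens arachidonate epoxides, stood at 17.2, 5.21 and 3.88 FPKM in rat 1, rat 2 and rat 3, a spread on the log2 scale of 1.01. Cyp4a8 shared this order of rats, and Acot5, a peroxisomal thioesterase, did too, at 5.41, 2.76 and 1.09 FPKM.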
